A study of Mus musculus with 2 samples.

Results

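The NODAL signalling genes Nodal, Tdgf1, Lefty1, Lefty2 and Otx2 were followed in foetal mouse germ cells. They were chosen by name, as the rows of the germ cell count table whose Ensembl identifiers carry these symbols, and all 5 were present among the 42422 genes of the table and passed the filter on low counts that left 15252 genes for testing. The germ cells were GFP-positive cells sorted by flow cytometry from gonads of wild-type E12.5 Oct4-eGFP embryos. The embryos had Swiss mothers and fathers with the transgene on a 129svJT2 background. Gonads were cultured together with the mesonephros, which was dissected away before sorting. XX and XY tissue was collected at E12.5 without culture (0 h) or cultured with the vehicle DMSO for 24 or 72 h. XY tissue was also cultured for 24 or 72 h with 500 nM FGFRi, the FGF receptor inhibitor BGJ398 (Infigratinib), or with 500 nM MEKi, the MEK1/2 inhibitor PD0325901 (Mirdametinib). The 10 groups held 4 libraries each, every library came from several pooled gonads, and no XX tissue received an inhibitor.

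NODAL is a secreted ligand of the TGF-beta family that works during gastrulation, left-right patterning and the upkeep of pluripotent cells. It binds activin receptors with the help of a membrane-bound co-receptor, TDGF1 (also called CRIPTO), and the signal passes through SMAD2 and SMAD3, which act at target genes with SMAD4 and FOXH1. LEFTY1 and LEFTY2 are secreted inhibitors that are themselves targets of the pathway and so form a negative feedback loop. OTX2 is a homeodomain transcription factor of the epiblast and the anterior head that is also linked to NODAL signalling. In the foetal testis the pathway is known for a short period of activity in XY germ cells around the time of sex determination.

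In the GRCm39 genome with GENCODE M39 annotation, Lefty2 (ENSMUSG00000066652) lies on the plus strand at chr1:180720635-180726932 and Lefty1 (ENSMUSG00000038793) on the same strand at chr1:180762587-180765971, with 35654 bases between them and 4 exons in each. Nodal (ENSMUSG00000037171; 3 exons) lies at chr10:61253587-61261117 on the plus strand, Otx2 (ENSMUSG00000021848; 5 exons) at chr14:48894099-48911276 on the minus strand, and Tdgf1 (ENSMUSG00000032494; 6 exons, annotated there as Cripto) at chr9:110768655-110775292 on the minus strand. All 5 are protein-coding. Promoter sequence is shown for Lefty1, Lefty2 and Otx2, the members called with MEKi at 72 h, and for Tdgf1, the member called with FGFRi at 24 h. Each line gives the 250 bases before the start of the canonical transcript, 5′ to 3′ on the strand of the gene, at chr1:180762337-180762586 for Lefty1, chr1:180720385-180720634 for Lefty2, chr14:48905008-48905257 for Otx2 and chr9:110775293-110775542 for Tdgf1 in GRCm39. Capitals mark matches to the SMAD-binding letters CAGAC, searched on both strands.
Lefty1: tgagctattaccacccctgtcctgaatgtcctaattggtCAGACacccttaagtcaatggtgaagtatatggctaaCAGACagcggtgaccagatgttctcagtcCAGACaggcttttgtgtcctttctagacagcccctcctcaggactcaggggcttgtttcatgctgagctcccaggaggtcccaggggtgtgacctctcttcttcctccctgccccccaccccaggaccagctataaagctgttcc
Lefty2: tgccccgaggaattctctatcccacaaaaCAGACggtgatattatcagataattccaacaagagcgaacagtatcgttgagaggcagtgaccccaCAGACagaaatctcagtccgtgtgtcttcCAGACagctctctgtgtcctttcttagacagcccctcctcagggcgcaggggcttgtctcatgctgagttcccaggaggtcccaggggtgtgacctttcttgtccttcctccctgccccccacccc
Otx2: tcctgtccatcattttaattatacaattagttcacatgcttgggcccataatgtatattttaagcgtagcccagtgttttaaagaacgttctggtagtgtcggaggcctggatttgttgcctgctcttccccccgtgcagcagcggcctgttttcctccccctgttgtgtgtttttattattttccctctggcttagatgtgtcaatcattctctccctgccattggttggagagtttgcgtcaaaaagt
Tdgf1: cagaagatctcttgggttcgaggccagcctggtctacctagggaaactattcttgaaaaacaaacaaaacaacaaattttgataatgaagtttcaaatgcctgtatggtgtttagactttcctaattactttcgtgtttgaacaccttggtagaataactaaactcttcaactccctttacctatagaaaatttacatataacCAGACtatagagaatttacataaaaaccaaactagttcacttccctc
The Lefty1 and Lefty2 promoters were identical in 65.3% of 274 aligned columns, against 45.4% to 50.4% for the other 9 pairs among the 5 genes. Each Lefty promoter held 3 matches to CAGAC, at 211, 174 and 145 bases before the start in Lefty1 and at 221, 155 and 126 bases in Lefty2. The Tdgf1 promoter held 1 match, and those of Nodal and Otx2 none. At least 1 match was found in 40.9% of the 15011 promoters of tested genes and at least 3 in 1.97%. The FOXH1 letters AATNCACA, found in 2.56% of those promoters, the OTX2 letters TAATCC, found in 6.77%, and the SMAD palindrome GTCTAGAC, found in 0.260%, were not present in these windows of any of the 5 genes. CAGAC was added to the search after those 3 motifs had given no match, and no motif overlapped another.

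Counts were molecules per gene, collapsed by a unique molecular identifier and primed at the poly(A) tail, with 1178953 to 5199153 per library and a median of 2135128.5. Levels are given as CPM (the share of a library's TMM-scaled total, on the usual per-library scale) and are not divided by gene length, so a level is compared between groups and not between genes. The 8 germ cell markers summed to between 1843 and 7662 CPM per library, 15 gonadal somatic markers to between 22.2 and 155 CPM, and 9 blood and endothelial markers to at most 395 CPM. Of the steroidogenic markers on the somatic list, Insl3, a Leydig cell hormone, was 0 in every library, Star had group means of 1.86 to 9.40 CPM, Hsd3b1 of 2.27 to 15.3 CPM and Cyp11a1 of at most 3.40 CPM. The libraries were sequenced as 2 pools of 20. The first held both 0 h groups, both 24 h DMSO groups and XY 24 h MEKi, and the second held XY 24 h FGFRi and every 72 h group, so where groups of different pools were compared, pool and group cannot be told apart. In 16 cases a library of the first pool carried the same sample index as a library of the second. XX 24 h DMSO libraries held 88 counts of 4 Y-linked genes, which is 4.20% of the 2097 counts in the XY 72 h FGFRi libraries with the same indexes. XX 0 h and XX 72 h DMSO libraries shared indexes with each other and with no XY library. Their Y-linked sums were still 1.47% and 2.89% of those in XY libraries of the same time, against 4.83% for XX 24 h DMSO. How much of the 4.20% came through the shared index was not tested. Nothing says whether the libraries of a group came from separate cultures, so p-values measure the spread between these samples. These are bulk samples, in which fewer cells expressing a gene and less RNA per cell cannot be told apart.

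At E12.5 XY germ cells held far more of all 5 transcripts than XX germ cells did. Nodal, the ligand, was at 7.13, 16.2, 17.4 and 19.2 CPM in the 4 XY libraries and at 1.39, 1.55, 2.10 and 2.70 CPM in the XX libraries. No XX library reached the lowest XY library, and the fitted difference was 8.25-fold (log2 3.05 ± 0.44 SE, adjusted p = 4.62e-05). Tdgf1, the co-receptor, was at 31.4, 32.5, 34.5 and 41.0 CPM in XY libraries, against 1.67 to 3.49 CPM in XX libraries, a difference of 13.5-fold (log2 3.75 ± 0.38, adjusted p = 6.31e-09). The secreted inhibitors differed by the highest folds of the 5. Lefty1 was at 142, 160, 161 and 165 CPM in XY libraries, against 3.88, 5.57, 6.57 and 8.39 CPM in XX germ cells, a 28.3-fold difference (log2 4.82 ± 0.30, adjusted p = 1.92e-16). Lefty2 was at 276, 282, 319 and 331 CPM in XY libraries, against 5.29, 5.79, 6.29 and 8.53 CPM in XX germ cells, a 45.6-fold difference (log2 5.51 ± 0.25, adjusted p = 3.71e-22). The 4 XY libraries lay close together for both Lefty genes, with standard deviations of 10.2 and 27.2 CPM around means of 157 and 302 CPM. Otx2 was at 27.6, 34.5, 42.1 and 44.9 CPM in XY libraries, against 3.88, 4.20, 4.25 and 5.57 CPM in XX germ cells (8.18-fold, log2 3.03 ± 0.29, adjusted p = 6.76e-09).

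The test was limma's treat against a fold of 1.5, with p-values adjusted by Benjamini-Hochberg over the 15252 genes, and 5 of 5 members were called higher in XY germ cells where 1.34% of all genes tested were called higher and 1.65% lower. The median log2 difference was 3.75 over the members and 0.03 over all genes. In XX libraries the mean level of the members was between 2.15% (Lefty2) and 12.9% (Nodal) of that in XY libraries, beside 1.47% for the sum of the 4 Y-linked genes. The somatic markers summed to 54.9 to 118 CPM in XY libraries at 0 h, against 29.5 to 51.1 CPM in XX libraries, and the blood and endothelial markers to 34.5 to 196 against 22.4 to 33.7 CPM. Their part in the difference was not tested.

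**Figure D1:**
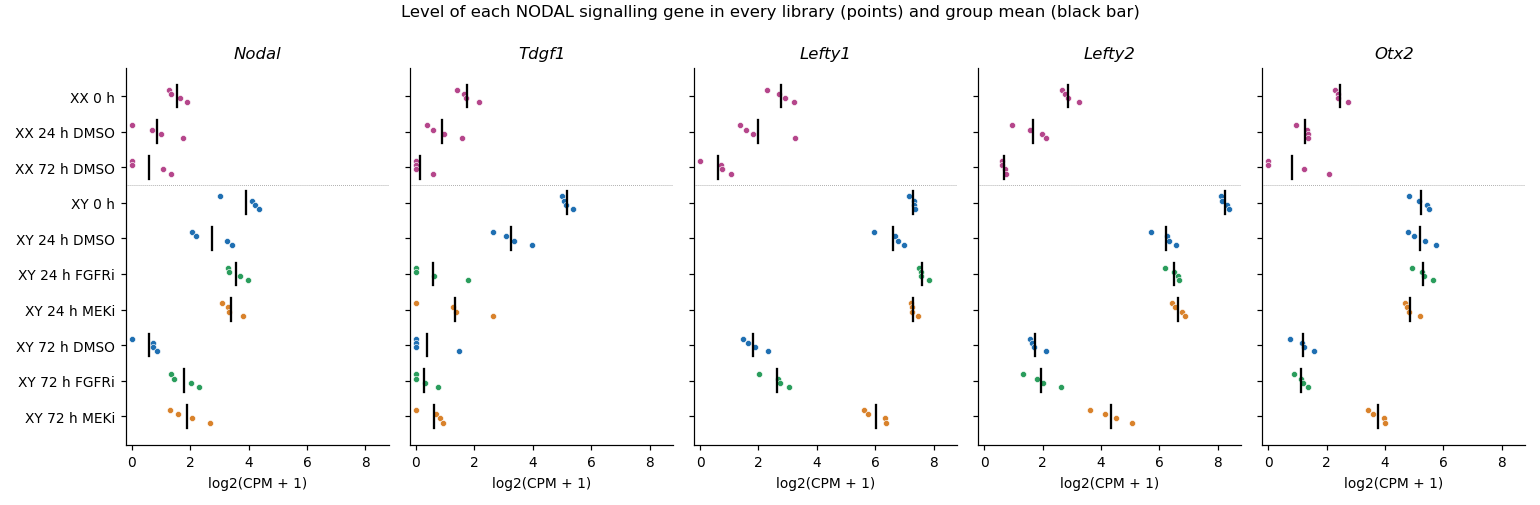
Level of the 5 genes in each of the 40 libraries, as log2(CPM + 1) on the horizontal axis, with 1 row per group, 1 point per library and a black bar at the mean of the 4 points; XX groups are above the dotted line, XY groups below it. The points of XY 0 h and of the XY 24 h DMSO group lie to the right of all XX points for every gene, and at 72 h MEKi points of Lefty1, Lefty2 and Otx2 lie to the right of the DMSO and FGFRi points.

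After 24 h of culture with DMSO the difference between the sexes was still present for each of the 5 genes. Nodal was at 3.13, 3.63, 8.60 and 9.74 CPM in XY libraries, against 0 to 2.36 CPM in XX libraries (log2 3.21 ± 0.67, adjusted p = 0.00248). Tdgf1 was at 5.21, 7.57, 9.33 and 14.8 CPM in XY libraries, against 0.311 to 2.00 CPM in XX germ cells (8.36-fold, adjusted p = 0.00130). The inhibitors again differed most between the sexes. Lefty1 was at 60.9, 101, 110 and 125 CPM in XY libraries, against 1.56, 2.00, 2.48 and 8.51 CPM in XX libraries (33.0-fold, adjusted p = 2.53e-11), and Lefty2 was at 51.1, 74.9, 79.8 and 94.2 CPM in XY libraries, against 0.934 to 3.31 CPM in XX libraries (34.5-fold, adjusted p = 2.73e-11). Otx2 was at 26.4, 30.7, 40.0 and 52.3 CPM in XY libraries, against 0.945 to 1.60 CPM in XX germ cells (23.8-fold, adjusted p = 5.96e-09). The sexes did not overlap for any member, and 5 of 5 were called higher in XY germ cells, where 4.00% of all genes were called higher and 5.99% lower. The Y-linked sum in XX libraries was 4.83% of that in XY libraries at this time, and the XX levels of Lefty1, Lefty2 and Otx2 were 3.67%, 3.07% and 3.74% of the XY levels, while those of Tdgf1 and Nodal were 10.2% and 15.9%. The somatic markers summed to 45.4 to 127 CPM in XY libraries, against 22.2 to 35.2 CPM in XX libraries, the germ cell markers to 4226 to 5754 against 3015 to 3965 CPM, and the blood and endothelial markers to 15.5 to 97.0 against 16.0 to 34.9 CPM. Their part in the difference at 24 h was not tested. Without XX 24 h DMSO replicate 9, in which no Nodal molecule was counted, the Nodal difference was no longer called (log2 2.33, adjusted p = 0.0574). In a fit of only these 2 groups Nodal did not pass the filter, and the other 4 genes were called.

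The size of the difference between the sexes was not called different at 24 h from that at 0 h for any of the 5 genes (limma interaction term; unadjusted p was under 0.05 for 0 of 5, and edgeR and DESeq2 also called 0 of 5, with unadjusted p under 0.05 for 1 in each), where 0.452% of all genes were called. The nearest was Otx2, whose difference was 1.54 ± 0.57 larger at 24 h on the log2 scale (adjusted p = 0.837).

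During the first 24 h in culture with DMSO, Lefty2 and Tdgf1 fell in XY germ cells and the other 3 genes were not called. Lefty2 dropped from a mean of 302 ± 27.2 CPM (SD, n = 4) to 75.0 ± 17.9 CPM, a 3.93-fold decrease (log2 -1.98 ± 0.12, adjusted p = 6.78e-12), and Tdgf1 from 34.8 ± 4.30 to 9.23 ± 4.07 CPM, a 3.83-fold decrease (log2 -1.94 ± 0.26, adjusted p = 1.64e-04). In both cases the highest library at 24 h lay below the lowest at 0 h. Lefty1 averaged 157 ± 10.2 CPM at 0 h and 99.1 ± 27.5 CPM at 24 h without overlap, but the fitted difference of 1.56-fold was not called against a fold of 1.5 (log2 -0.64 ± 0.14, adjusted p = 1.00). Nodal, at 15.0 ± 5.38 and 6.27 ± 3.38 CPM, overlapped between the times and was not called (log2 -1.19 ± 0.33, adjusted p = 0.480). Otx2 averaged 37.3 ± 7.79 and 37.4 ± 11.4 CPM (log2 -0.06 ± 0.16, adjusted p = 1.00). Thus 2 of 5 members were called lower, where 1.33% of all genes were called lower and 1.61% higher. Tested against no change, with an observed fold over 1.5, limma also called Lefty1 and Nodal lower (adjusted p = 3.40e-04 and 0.00480), in a test that called 1098 genes lower and 1232 higher, where treat called 203 and 246. Without the filter on low counts Tdgf1 was not called (log2 -1.85, adjusted p = 0.0527).

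Between 24 and 72 h with DMSO, all 5 genes fell in XY germ cells to levels near those of XX germ cells. At 72 h Lefty1 was counted 4, 5, 4 and 6 times in the 4 XY libraries (1.79 to 3.98 CPM), and Lefty2 5, 5, 3 and 5 times (2.00 to 3.32 CPM). Otx2 was at 0.666, 1.25, 1.34 and 1.99 CPM, Nodal at 0, 0.664, 0.666 and 0.836 CPM, and Tdgf1 was found in only 1 of the 4 libraries, with 4 counts. The fitted decreases were 38.1-fold for Lefty1 (log2 -5.25 ± 0.46, adjusted p = 2.65e-12), 29.2-fold for Lefty2, 24.9-fold for Otx2, 17.9-fold for Tdgf1 and 10.9-fold for Nodal (adjusted p = 2.65e-12, 3.74e-10, 7.90e-06 and 2.58e-04), and no range overlapped. All 5 members were called lower, where 11.3% of all genes were called lower and 16.0% higher. In a fit of only these 2 groups Nodal did not pass the filter, and the other 4 were called. The median log2 change was -4.64 over the members and 0.02 over all genes. These groups belonged to different pools. The germ cell markers also summed to less at 72 h (2371 to 2833 CPM) than at 24 h (4226 to 5754 CPM), and the part of neither in the decrease was tested. Beside the XY 0 h libraries that share their indexes, the counts left at 72 h came to 0.63% to 3.77% of the partner's count for Lefty1, 0.426% to 1.34% for Lefty2, 0% to 3.31% for Tdgf1 and 1.14% to 9.68% for Otx2, and for Nodal, at 2.48% over the 4 pairs, the highest pair exceeded that of Otx2. Lefty1, Lefty2 and Tdgf1 lay in every pair under the 4.20% seen for Y-linked genes in the opposite direction between the pools.

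At 72 h limma's treat called none of the 5 genes between XY and XX germ cells in DMSO. In XY libraries Lefty1 was at 1.79 to 3.98 CPM, against 0 to 1.07 CPM in XX libraries, and Lefty2 at 2.00 to 3.32 against 0.516 to 0.669 CPM, so both remained higher in every XY library, at log2 1.81 ± 0.84 and 1.57 ± 0.74 (adjusted p = 0.164 and 0.199). Nodal, Otx2 and Tdgf1 overlapped between the sexes. Germ cell markers summed to 2371 to 2833 CPM in XY libraries at 72 h, against 1843 to 2175 CPM in XX libraries, and blood and endothelial markers to 28.6 to 50.4 against at most 20.1 CPM, with no overlap in either. Somatic markers, at 75.2 to 113 against 97.6 to 155 CPM, overlapped. Their part in these values was not tested. With 0 of 5 called by limma (0 at an unadjusted p under 0.05), edgeR called 1, Lefty2 (log2 1.92, adjusted p = 0.0483), and DESeq2 0, while 41.0% of all genes differed between the sexes at this time. The difference between the sexes shrank from 24 to 72 h for 4 of 5 genes: by 3.44 ± 1.11 on the log2 scale for Nodal, 3.23 ± 0.95 for Lefty1, 3.54 ± 0.87 for Lefty2 and 3.61 ± 0.90 for Otx2 (adjusted p = 0.0282, 0.0181, 0.00439 and 0.00474). The value for Tdgf1, -2.70 ± 1.08, was not called (adjusted p = 0.0971). Of all genes 9.93% were called lower and 16.2% higher in this test, in which the pools cancel. In a fit of only the groups of this test Nodal did not pass the filter on low counts, so it was tested through other groups. edgeR and DESeq2 called 2 of 5 each, Lefty2 and Otx2. Without XX 72 h DMSO replicate 11, the XX library with the highest Otx2 value at that time, only Lefty2 remained called, and the value for Otx2 was -2.80 (adjusted p = 0.0558). Nodal was also lost without any 1 of XX 24 h DMSO replicate 9, XY 24 h DMSO replicate 4 or 5, XX 72 h DMSO replicate 4 or XY 72 h DMSO replicate 2 (log2 -2.56 to -3.16, adjusted p = 0.0521 to 0.121), with the smallest value without XX 24 h DMSO replicate 9, and Lefty1 without XX 24 h DMSO replicate 4 or XX 72 h DMSO replicate 8 (adjusted p = 0.0505 and 0.0523). Tdgf1 was called without XY 72 h DMSO replicate 2, the library with its 4 counts (log2 -3.48, adjusted p = 0.0350). It was also called against no change (adjusted p = 0.0326) and without the filter on low counts (log2 -2.88, adjusted p = 0.0485), where Nodal was lost (log2 -2.85, adjusted p = 0.0688).

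XX germ cells started from low levels and no change with time was called in them by limma's treat. Lefty2 was at 5.29 to 8.53 CPM at 0 h, 0.934 to 3.31 CPM at 24 h and 0.516 to 0.669 CPM at 72 h, with no overlap between successive times. Otx2 was at 3.88 to 5.57 CPM at 0 h and 0.945 to 1.60 CPM at 24 h. From 0 to 24 h limma called 0 of 5 members (2 at an unadjusted p under 0.05), edgeR 2, which were Lefty2 and Otx2 (adjusted p = 0.0327 and 0.0372), and DESeq2 0, where limma called 3.23% of all genes. From 24 to 72 h limma called 0 of 5 (1 at an unadjusted p under 0.05), edgeR 1, which was Lefty1 (adjusted p = 0.0147), and DESeq2 0, where limma called 22.2% of all genes in a comparison across pools. At 72 h the 4 XX libraries held 4 counts of Lefty1, 4 of Lefty2 and 1 of Tdgf1 in all, so a further decrease was not detectable at this depth. In XX libraries the germ cell markers summed to 3663 to 4366 CPM at 0 h, 3015 to 3965 CPM at 24 h and 1843 to 2175 CPM at 72 h, and the somatic markers to 29.5 to 51.1, 22.2 to 35.2 and 97.6 to 155 CPM, with no overlap between 24 and 72 h in either. Their part in the XX values was not tested.

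At 24 h Tdgf1 was lower with FGFRi, and it was the only member limma's treat called for either inhibitor. Tdgf1 was at 5.21, 7.57, 9.33 and 14.8 CPM with DMSO. With FGFRi it was at 0, 0, 0.527 and 2.44 CPM, and with MEKi at 0, 1.39, 1.59 and 5.29 CPM. Every FGFRi library lay below every DMSO library, and Tdgf1 fell 11.9-fold (log2 -3.57 ± 0.64, adjusted p = 0.00816). That decrease rested on 4 counts in all 4 FGFRi libraries against 99 with DMSO, these groups came from different pools, and leaving out FGFRi replicate 1 or 4 removed the call (adjusted p = 0.0560 and 0.115). Tdgf1 passed the filter on low counts through groups in which it was higher: in a fit of only the DMSO and FGFRi libraries, and in that with a replicate block, it did not pass and was not tested. With MEKi, in the same pool as DMSO, 16 counts remained, the highest MEKi library just reached the lowest DMSO library, and the 6.26-fold lower level was not called (log2 -2.65 ± 0.54, adjusted p = 0.0953). Without MEKi replicate 4, the library with 10 of the 16 counts, it was called (log2 -3.29, adjusted p = 0.0255). The 2 inhibitors were not called different from each other for Tdgf1 (log2 0.92 ± 0.78, MEKi minus FGFRi, adjusted p = 1.00).

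No other member was called for either inhibitor at 24 h, and Lefty1 was higher in every treated library. Lefty1 was at 60.9 to 125 CPM with DMSO, at 178, 188, 188 and 229 CPM with FGFRi and at 148, 152, 154 and 176 CPM with MEKi. The ranges did not overlap, but the fitted differences of 1.93-fold (log2 0.95 ± 0.14, adjusted p = 0.676) and 1.56-fold (log2 0.64 ± 0.14, adjusted p = 1.00) were not called against a fold of 1.5. Tested against no change, with an observed fold over 1.5, limma called both, at adjusted p = 4.04e-06 and 0.00196. Lefty2 averaged 75.0 ± 17.9 CPM with DMSO, 90.4 ± 13.5 with FGFRi and 100 ± 14.3 with MEKi, Otx2 averaged 37.4 ± 11.4, 38.9 ± 7.96 and 28.6 ± 5.09 CPM, and Nodal 6.27 ± 3.38, 11.1 ± 2.88 and 9.60 ± 2.47 CPM. Each of these overlapped with DMSO. With FGFRi 1 of 5 members was called lower and none higher, where 0.131% of all genes were called lower and 0.131% higher. With MEKi limma called 0 of 5 (1 at an unadjusted p under 0.05; edgeR 0, DESeq2 0), where 0.164% of all genes were called. Between the inhibitors limma, edgeR and DESeq2 all called 0 of 5 (0 at an unadjusted p under 0.05 in each), where limma called 0.105% of all genes. The comparisons of the inhibitors share the DMSO libraries. The blood and endothelial markers summed to between 158 and 395 CPM in the MEKi libraries against 15.5 to 97.0 CPM with DMSO and 53.0 to 68.6 CPM with FGFRi, all 9 being detected in at least 1 MEKi library, and the germ cell markers to 5256 to 6099 CPM with MEKi and 5822 to 7662 CPM with FGFRi against 4226 to 5754 CPM with DMSO. Most of the MEKi blood and endothelial sum was globin: Hbb-y, Hba-x and Hba-a1 averaged 92.8, 35.4 and 98.7 CPM, against 17.9, 5.09 and 32.1 CPM with DMSO. The endothelial markers Cdh5, Kdr and Tek averaged 0.538, 0.666 and 0.411 CPM with MEKi, against 1.37, 0.216 and 0.592 CPM with DMSO. The part of all these markers in the inhibitor values was not tested.

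At 72 h the inhibitors differed from each other: with MEKi, Lefty1, Lefty2 and Otx2 were several-fold above DMSO, whereas with FGFRi they were not called by limma's treat. Lefty1 was at 48.6, 52.5, 79.9 and 82.2 CPM with MEKi, at 3.09, 5.42, 5.60 and 7.32 CPM with FGFRi and at 1.79, 2.09, 2.66 and 3.98 CPM with DMSO. Every MEKi library exceeded every other 72 h library, and Lefty1 was 22.7-fold higher than with DMSO (log2 4.50 ± 0.46, adjusted p = 2.43e-09) and 10.7-fold higher than with FGFRi (log2 3.42 ± 0.28, adjusted p = 8.89e-12). Lefty2 was at 11.4, 16.6, 21.8 and 32.3 CPM with MEKi, at 1.55 to 5.17 CPM with FGFRi and at 2.00 to 3.32 CPM with DMSO. It was 7.07-fold higher with MEKi than with DMSO (log2 2.82 ± 0.43, adjusted p = 8.13e-05) and 6.38-fold higher than with FGFRi (adjusted p = 2.81e-06). Otx2 was at 9.79, 10.9, 14.7 and 15.1 CPM with MEKi, at 0.862 to 1.55 CPM with FGFRi and at 0.666 to 1.99 CPM with DMSO, a difference of 9.06-fold from DMSO (log2 3.18 ± 0.48, adjusted p = 4.38e-05) and 10.2-fold from FGFRi (adjusted p = 9.29e-07). The other members had few molecules at this time.

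Nodal was at 1.49, 1.98, 3.13 and 5.37 CPM with MEKi, at 1.51, 1.72, 3.05 and 3.87 CPM with FGFRi and at 0 to 0.836 CPM with DMSO. Both inhibitor groups lay above DMSO without overlap and overlapped with each other, but DMSO held 4 counts in all and neither difference was called (MEKi log2 2.16 ± 0.67, adjusted p = 0.103; FGFRi log2 1.97 ± 0.69, adjusted p = 1.00). edgeR called the MEKi difference (log2 2.50, adjusted p = 0.0214). Tdgf1 was counted 10 times in the 4 MEKi libraries, 5 times with FGFRi and 4 times with DMSO, and a difference was not detectable at this depth (MEKi log2 0.52 ± 0.79, adjusted p = 1.00). So 3 of 5 members were called higher with MEKi than with DMSO, where 4.01% of all genes were called higher and 5.11% lower, and the same 3 were called higher with MEKi than with FGFRi, where 5.71% were called higher and 6.98% lower. The MEKi and FGFRi libraries were each compared with the same DMSO libraries. Between FGFRi and DMSO limma called 0 of 5 (1 at an unadjusted p under 0.05; edgeR 0, DESeq2 0), where 0.00656% of all genes were called.

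The 72 h groups were all in the second pool. The MEKi libraries share indexes with XY 24 h DMSO libraries of the first pool, and their Lefty1 counts were 60.5% to 126% of those of the partner, their Lefty2 counts 29.6% to 44.5% and their Otx2 counts 42.4% to 53.9%, against 4.20% for Y-linked genes in the opposite direction. Germ cell markers summed to between 2451 and 3840 CPM with MEKi and 2371 to 2833 CPM with DMSO, somatic markers to 79.1 to 143 and 75.2 to 113 CPM, and blood and endothelial markers to 14.5 to 22.3 and 28.6 to 50.4 CPM. With FGFRi the 3 sums were 1964 to 2849, 54.5 to 77.7 and 22.5 to 61.1 CPM, so that the somatic and the blood and endothelial sums did not overlap between FGFRi and MEKi. Their part in the result was not tested. With 4.20% of the partner's counts taken off in both pools, an alternative chosen after seeing the data, Lefty1, Lefty2 and Otx2 were also called higher with MEKi than with FGFRi. The same alternative takes Lefty1, Lefty2 and Tdgf1 to 0 in all 4 DMSO libraries by construction, so its folds against DMSO are not given. The 3 calls were kept in every fit that left out a single library of the groups compared.

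**Figure D2:**
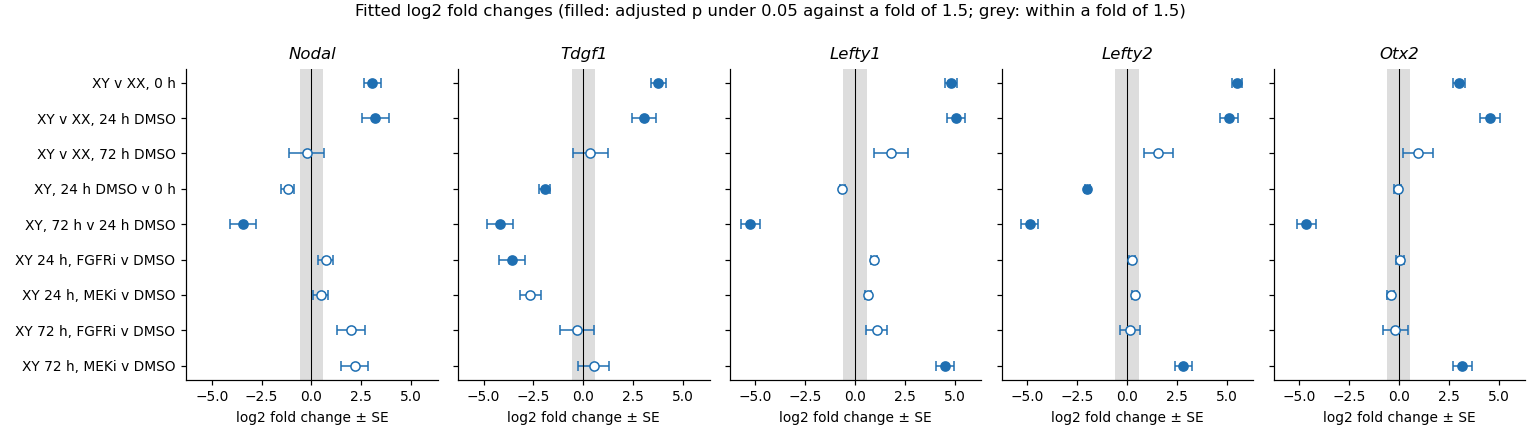
Fitted log2 fold changes with standard errors (horizontal axis) of the 5 genes in 9 comparisons (rows, first-named group over the second); filled circles are adjusted p under 0.05 against a fold of 1.5, and the grey band spans a fold of 1.5 either way. Lefty1, Lefty2 and Otx2 have filled circles for MEKi at 72 h (4.50, 2.82 and 3.18) and open circles for both inhibitors at 24 h, while the filled inhibitor circle of Tdgf1 is FGFRi at 24 h (-3.57).

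The difference between MEKi and DMSO was itself larger at 72 h than at 24 h for Lefty1 (by 3.86 ± 0.48 on the log2 scale, adjusted p = 9.43e-06), Otx2 (3.59 ± 0.51, adjusted p = 1.09e-04) and Lefty2 (2.44 ± 0.45, adjusted p = 0.00905). It was not called for Tdgf1 (3.17 ± 0.96, adjusted p = 0.142; 0.0121 against no change) or Nodal (1.70 ± 0.77, adjusted p = 0.632). So 3 of 5 were called higher and none lower, where 1.21% of all genes were called higher and 0.675% lower.

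With MEKi the 72 h levels of Lefty1, Lefty2 and Otx2 were intermediate between those of XY germ cells at E12.5 and those of XX germ cells at 72 h. Compared with XY 0 h, all 5 genes were lower: Lefty1 by 2.62-fold (log2 -1.39 ± 0.13, adjusted p = 1.71e-06), Otx2 by 2.86-fold, Nodal by 5.56-fold, Lefty2 by 16.2-fold and Tdgf1 by 47.9-fold (adjusted p = 2.80e-05, 1.38e-05, 6.38e-26 and 5.88e-12), in a comparison across pools in which 8.83% of all genes were called lower and 15.1% higher. Compared with XX 72 h DMSO, Lefty1 was 79.7-fold higher (log2 6.32 ± 0.72), Lefty2 21.0-fold (log2 4.39 ± 0.63) and Otx2 17.7-fold (log2 4.15 ± 0.62; adjusted p = 1.67e-09, 1.21e-06 and 2.84e-06), while Nodal (log2 1.92 ± 0.71, adjusted p = 0.0973) and Tdgf1 (0.88 ± 0.83, adjusted p = 0.738) were not called by limma's treat. Nodal was called there by edgeR (log2 2.07, adjusted p = 0.0233), by limma against no change (adjusted p = 0.0164) and without the filter on low counts (adjusted p = 0.0479). Of all genes 17.2% were called higher and 12.8% lower in that comparison. Germ cell markers, at 2451 to 3840 CPM with MEKi and 1843 to 2175 CPM in XX 72 h libraries, did not overlap, while somatic markers (79.1 to 143 and 97.6 to 155 CPM) did. In XY 0 h libraries the blood and endothelial markers summed to 34.5 to 196 CPM, without overlap with the 14.5 to 22.3 CPM of MEKi. Their part in these differences was not tested.

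The 2 Lefty genes changed in their proportion to each other. In XY libraries at 0 h the ratio of Lefty1 to Lefty2 counts was 0.427, 0.504, 0.578 and 0.584. With DMSO at 24 h it was 1.19, 1.26, 1.33 and 1.46, with MEKi 1.27 to 1.91 and with FGFRi 1.85 to 2.49. The ratio was thus below 1 in every 0 h library and above 1 in every 24 h library of XY germ cells. At 72 h with MEKi it was 2.48, 2.92, 3.76 and 4.62, above the ratio of every XY 0 h and 24 h DMSO library but overlapping that of FGFRi at 24 h. With FGFRi at 72 h it was 1.08 to 2.42, and with DMSO, at 3 to 6 counts of either gene per library, it was 0.80 to 1.33. The ratio was not tested. Of the 50-base stretches in the last 500 bases of the Lefty1 transcript, 5 of 451 also occurred in the Lefty2 transcript, and 0 of 451 in the reverse search, so a read near the 3′ end of either gene can usually be told from the other. Over the whole transcripts 17.8% of the Lefty1 and 11.4% of the Lefty2 stretches were shared, and how reads from shared stretches were counted is not given in the sources used here.

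**Figure D3:**
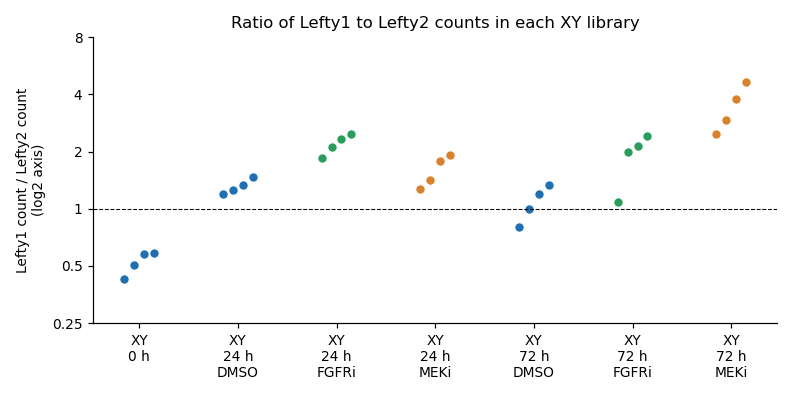
Ratio of Lefty1 to Lefty2 counts (vertical log2 axis) in each XY library, by group on the horizontal axis, 4 points per group; the dashed line is a ratio of 1. All 4 points of XY 0 h lie below the line (0.427 to 0.584), and all MEKi points at 72 h lie above 2 (2.48 to 4.62).

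Other genes of the pathway were taken from a list of 32, of which 31 were in the table and 23 were tested. Cfc1, Acvr1c, Cer1, Eomes, Gsc, Mixl1, Foxa2 and Foxd3 did not pass the filter, with at most 20 counts in any library, and Gdf1 was not matched in the table. Among the signal transducers, receptors and convertases, Smad2, Smad4, the type I receptor Acvr1b, the type II receptor Acvr2b and the convertase Furin, which cleaves the NODAL precursor, were called in none of the 18 comparisons by limma's treat. Acvr2a, a type II receptor, was lower in XY than XX germ cells at 72 h (log2 -1.46 ± 0.25, adjusted p = 0.00199).

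At E12.5, 4 of 23 were higher in XY germ cells and none lower, with a median log2 difference of 0.04, where 1.34% of all genes were called higher and 1.65% lower. They included Lhx1, a LIM homeodomain factor of the node and anterior mesendoderm (254 ± 35.7 against 94.8 ± 18.7 CPM, log2 1.36 ± 0.13), Tgif1, a SMAD co-repressor (log2 1.16 ± 0.17), and Ski, another co-repressor (log2 1.10 ± 0.13; adjusted p = 1.10e-05, 0.0295 and 0.00499). At 24 h 5 of 23 were higher, among them Tgif1, Lhx1, Nanog and Gdf3, and Pcsk6 was lower, where 4.00% of all genes were called higher and 5.99% lower. Gdf3 encodes a ligand of the same family and Nanog a pluripotency factor, and the 2 stood at 68.0 ± 6.98 and 58.9 ± 13.7 CPM in XY libraries, against 25.3 ± 7.72 and 21.7 ± 7.46 CPM in XX libraries. At 72 h Gdf3 was higher and Inhbb, Pcsk5 and Acvr2a lower in XY germ cells, where 41.0% of all genes were called in either direction. At that time the somatic markers Wt1, Foxl2 and Nr2f2 averaged 23.4, 9.41 and 29.7 CPM in XX libraries. In XY libraries they averaged 6.33, 0.714 and 15.7 CPM. Nr5a1, Gata4, Hsd3b1 and Star also had higher means in XX libraries. The other somatic markers detected at that time, Sox9, Amh, Dhh, Fst, Cyp11a1, Pdgfra and Acta2, had higher means in XY libraries. The sums of the somatic markers overlapped between the sexes. The part of the somatic markers in these calls was not tested.

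From 0 to 24 h in XY germ cells Smad7, an inhibitory SMAD, fell from 44.2 ± 5.84 to 14.7 ± 1.71 CPM (log2 -1.60 ± 0.18, adjusted p = 3.80e-05) while Tgif1 rose from 42.8 ± 3.67 to 101 ± 9.25 CPM (log2 1.21 ± 0.14, adjusted p = 0.00105). From 24 to 72 h, 11 of 23 fell and Inhba, an activin subunit, rose, with a median log2 change of -0.73, where 11.3% of all genes were called lower and 16.0% higher. The 11 included Lhx1, Nanog, Gdf3, Foxh1, Tgif1, Dand5, Smad3, Smad7, Drap1 and Skil, and Foxh1, the DNA-binding partner of the SMADs, dropped by 3.38 ± 0.65 on the log2 scale to at most 0.664 CPM. In XX germ cells 5 of 23 fell over the same time (Gdf3, Foxh1, Smad7, Nanog and Lhx1) and Pcsk5 rose, after decreases of Nanog and Lhx1 in the first 24 h. Of all genes 22.2% were called in either direction between 24 and 72 h in XX germ cells and 3.23% in the first 24 h. The decreases of Lhx1 and Tgif1 from 24 to 72 h were larger in XY than in XX germ cells by the interaction test (adjusted p = 0.0128 and 0.0427).

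At 24 h limma called 0 of the 23 for either inhibitor (1 at an unadjusted p under 0.05 for FGFRi and 1 for MEKi; edgeR and DESeq2 called 0 for each), where 0.131% of all genes were called higher and 0.131% lower with FGFRi and 0.164% in either direction with MEKi. At 72 h with MEKi 4 of 23 were higher than with DMSO and none lower, with a median log2 difference of 0.71 against 0.01 over all genes, of which 4.01% were called higher and 5.11% lower. Gdf3 stood at 22.1 ± 3.50 CPM with MEKi, 6.21 ± 3.13 with FGFRi and 7.29 ± 2.52 with DMSO, and Nanog at 15.0 ± 4.05, 6.79 ± 3.54 and 5.34 ± 4.20 CPM (adjusted p = 0.0235 and 0.0190). Drap1, which represses FOXH1 activity, was also higher (75.7 ± 4.19, 32.1 ± 3.40 and 30.9 ± 3.73 CPM, adjusted p = 0.00108). With FGFRi at 72 h 0 of 23 were called (1 at an unadjusted p under 0.05; edgeR and DESeq2 0), where 0.00656% of all genes were called. Between MEKi and FGFRi at 72 h, 4 of 23 were called higher with MEKi, among them Gdf3, Drap1 and Lhx1, where 5.71% of all genes were called higher and 6.98% lower. Compared with XY 0 h, 72 h MEKi germ cells had 6 of 23 lower, among them Gdf3, Foxh1, Smad7, Nanog and Lhx1, and higher Fst, the activin antagonist follistatin, which is also on the list of somatic markers, where 8.83% of all genes were called lower and 15.1% higher. Compared with XX 72 h DMSO they had 7 of 23 higher, among them Gdf3, Smad7, Skil, Tgif1, Nanog and Lhx1, where 17.2% of all genes were called higher and 12.8% lower.

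**Figure D4:**
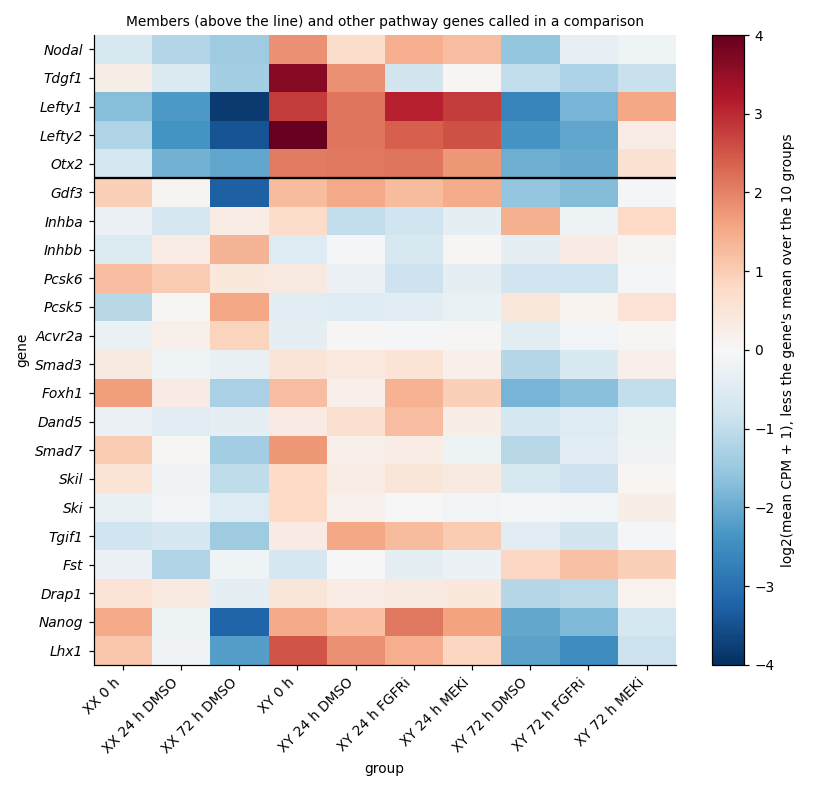
Mean level of each gene (rows) in the 10 groups (columns), as log2(mean CPM + 1) less the gene's own mean over the groups; red is above that mean and blue below it. The 5 members are above the black line and 17 other pathway genes called in any comparison below it, and Lefty1 is red in XY 0 h, the XY 24 h groups and XY 72 h MEKi.

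Over the 10 group means of log2 CPM, Nodal, Lefty1, Lefty2 and Otx2 followed each other with Pearson's r of 0.93 to 0.98, and Tdgf1 followed them with r of 0.54 to 0.71. Among about 10500 genes with a mean log2 CPM of at least 3, those most like Lefty1 were Cd59a (r = 0.977) and Otx2 (0.977), those most like Otx2 were Lefty1, Lefty2 and Cd59a (0.977, 0.973 and 0.971), and those most like Lefty2 included Otx2 and Lefty1 (0.973 and 0.966). Cd59a encodes a complement regulator of the cell surface, and at 0 h it stood at 65.2 ± 8.94 CPM in XY libraries, against 22.6 ± 2.87 CPM in XX libraries, and at 38.7 ± 5.03 CPM with MEKi against 15.4 ± 3.20 CPM with DMSO at 72 h. Nodal was most like Stk4, Lefty2 and 2310022A10Rik (r = 0.987, 0.963 and 0.952). Tdgf1 was most like Elavl1, Spry2 and Champ1 (r = 0.958, 0.953 and 0.949). Pearson's r does not reflect the size of a change. The group means of Nodal ran from 0.541 to 15.0 CPM, those of Stk4 from 64.5 to 101 CPM and those of 2310022A10Rik from 16.1 to 53.9 CPM. The means of Tdgf1 ran from 0.129 to 34.8 CPM, those of Elavl1 from 176 to 246 CPM and those of Champ1 from 60.2 to 93.4 CPM. Spry2, a feedback inhibitor of receptor tyrosine kinase signalling, was at 42.8 ± 12.1 CPM in XY germ cells at 0 h, at 23.3 ± 4.09 CPM at 24 h with DMSO, and at 8.93 ± 4.17 and 8.72 ± 1.27 CPM with FGFRi and MEKi. These correlations describe 10 groups that share pools, culture time and depth, and are not tests.

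Ordered by mean level, Lefty1 ran from XY 24 h FGFRi (196 CPM) through XY 24 h MEKi and XY 0 h (both 157 CPM), XY 24 h DMSO (99.1) and XY 72 h MEKi (65.8) to XX 0 h (6.10), XY 72 h FGFRi (5.36), XX 24 h DMSO (3.63), XY 72 h DMSO (2.63) and XX 72 h DMSO (0.597). Neighbours did not overlap between XY 24 h FGFRi and MEKi, XY 0 h and XY 24 h DMSO, XY 72 h MEKi and XX 0 h, and XY and XX 72 h DMSO, and the other neighbours did. Lefty2 ran from XY 0 h (302) through the XY 24 h groups (100, 90.4 and 75.0 for MEKi, FGFRi and DMSO, which overlapped) to XY 72 h MEKi (20.5) and XX 0 h (6.48), without overlap between these steps. Otx2 had overlapping levels in XY 0 h and the 3 XY 24 h groups (28.6 to 38.9), then XY 72 h MEKi (12.6), XX 0 h (4.47) and the remaining groups at 1.14 to 1.40 CPM. Tdgf1 stood at 34.8 CPM in XY 0 h and 9.23 in XY 24 h DMSO, with no overlap between them, and the other groups had means of 0.129 to 2.40 CPM. Of those, the highest XY 24 h MEKi library overlapped with XY 24 h DMSO. For Nodal every group overlapped with its neighbours, from 15.0 CPM in XY 0 h to 0.541 CPM in XY 72 h DMSO.

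Long non-coding RNAs on the opposite strand share 206 exonic bases with Lefty1, 611 with Lefty2 and 94 with Otx2 in GENCODE M39, and those RNAs were not matched in the count table. The exon assignment in the study's code was set to use strand. A pseudogene of Tdgf1, Tdgf1-ps1 on chromosome 16, had 2 counts over the 40 libraries, beside 501 for Tdgf1.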

How the data were processed

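RNA of sorted germ cells was measured in 40 libraries, 4 for each of 10 groups. The deposited values are counts per gene: the authors demultiplexed reads by sample index with scPipe, aligned them to GRCm39 with Rsubread, assigned them to annotated exons and collapsed reads that shared a molecular identifier. Versions of these tools are not given in the sources used here. Of 42422 genes, 40391 were matched by Ensembl identifier to GENCODE mouse release 39, and the others held 1.05% of counts. All 40 columns were used.

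Group and replicate number came from the library names. Genes were filtered with filterByExpr (edgeR 4.0.16), which left 15252, scaled with TMM, and fitted with voomWithQualityWeights and treat (limma 3.58.1) in 1 fit of all 40 libraries, against a fold of 1.5, with Benjamini-Hochberg adjustment and a threshold of 0.05. The procedure was tested on simulated data. Alternatives were edgeR's quasi-likelihood test, DESeq2 1.42.0, a test against no change, other size factors, no sample weights, no filter, only the groups compared, a replicate block, counts shared through an index taken off (off both pools was chosen after seeing the data), and leaving out each library.

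Named genes were the 5 members, pathway genes called in any comparison, and the 3 genes per member with the highest Pearson correlation over 10 group means of log2 CPM, among tested genes with a mean of 3 or more. Members and lists were chosen with earlier results of these data known. The promoter windows lie before each gene's canonical GENCODE transcript. Some genes that these rules name are not reported here.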

Additional observations from a re-analysis of the deposited data

Results flagged for a closer look

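In 4 of the 50 groups of 4 library values, 1 library stood apart from the other 3 beyond the 95% critical value of Dixon's test, which chance gives in about 1 of 20 groups. Lefty1 was at 8.51 CPM in 1 XX 24 h DMSO library and at 1.56 to 2.48 CPM in the others. Otx2 was at 0.945 CPM in 1 XX 24 h DMSO library and at 1.49 to 1.60 CPM in the others. Tdgf1 was at 0.516 CPM in 1 XX 72 h DMSO library, which is 1 count, and at 1.79 CPM in 1 XY 72 h DMSO library, which is 4 counts, with 0 in the other libraries of both groups. Those zeros fix the statistic at 1.00 for any single value above 0, so the share of 1 of 20 does not hold for these Tdgf1 groups.

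The difference between XY and XX germ cells was smaller at 72 h than at 24 h with DMSO by limma's interaction term, at log2 -3.44 for Nodal, -3.23 for Lefty1, -3.54 for Lefty2 and -3.61 for Otx2. Nodal did not pass the filter on low counts in a fit of only those groups. The difference between MEKi and DMSO was larger at 72 h than at 24 h, at log2 3.86 for Lefty1, 2.44 for Lefty2 and 3.59 for Otx2. The latter 3 calls were kept when any 1 of the 16 libraries was left out.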

How the results depend on the processing

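No called value changed sign under any alternative run, and 38 values that were not called did. The number of members called did not change with RLE size factors, without sample weights, or with index counts taken off the first pool. With edgeR it was 2 for XX 24 h against 0 h, 1 for XX 72 h against 24 h and 1 for XY against XX at 72 h, each 0 with limma, and 2 for the change of the sex difference from 24 to 72 h, which was 4 with limma and 2 with DESeq2. With limma against no change it was 2 and 1 for those XX comparisons, 4 in place of 2 for XY 24 h against 0 h, 2 in place of 1 for FGFRi at 24 h and 2 in place of 0 for MEKi at 24 h. That test also called Nodal for MEKi at 72 h against DMSO and against XX 72 h (adjusted p = 0.00695 and 0.0164), and Tdgf1 in the changes of the MEKi and the sex difference from 24 to 72 h (adjusted p = 0.0121 and 0.0326). It called more genes in all, at 304 higher and 326 lower for FGFRi at 24 h (20 and 20 with treat), 224 and 332 for MEKi at 24 h (25 in all with treat) and 2375 and 2373 for MEKi at 72 h (611 and 780). Without the filter it was 1 for XY 24 h against 0 h (Tdgf1 adjusted p = 0.0527). With index counts taken off both pools it was 1 in place of 0 for MEKi at 24 h (Tdgf1, adjusted p = 0.0395) and for FGFRi against DMSO at 72 h (Lefty1, adjusted p = 0.0213). The latter follows from the construction, since 4.20% of the XY 0 h partners takes Lefty1, Lefty2 and Tdgf1 to 0 in every XY 72 h DMSO library, and no fold against that group is read from this alternative. In a fit of only the groups compared it was 0 for FGFRi at 24 h, where Tdgf1 did not pass the filter, and 4 in place of 5 for XY against XX at 24 h and for XY 72 h against 24 h, where Nodal did not. Nodal also did not pass in that fit for the change of the sex difference from 24 to 72 h.

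Leaving out 1 library gave 0 to 1 members for FGFRi at 24 h, 0 to 1 for MEKi at 24 h, 4 to 5 for XY against XX at 24 h and 1 to 4 for the change of the sex difference from 24 to 72 h. The other comparisons kept their counts.

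Same-numbered libraries did not deviate together: their correlations ran from -0.23 to 0.24, and in no comparison with 3 or more pairs were all over 0.1. With the replicate number as a block, in 13 comparisons that allowed it, the count was 0 for FGFRi at 24 h (Tdgf1 did not pass the filter), 4 for XY against XX at 24 h and for XY 72 h against 24 h (Nodal did not pass the filter), 5 for XY against XX at 0 h and 3 for MEKi against DMSO at 72 h. No sample correlated best with its own number throughout any comparison with 3 or more pairs.

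Over all genes, the count of calls moved by over 1.5 times in 17 of 18 comparisons against no change, 9 of 18 with edgeR and 9 of 13 with the block. The size factors shifted the median of all genes by up to 0.12 (log2), and having no filter by up to 0.56. Depth limits Nodal and Tdgf1, which had 4 counts each in the XY 72 h DMSO libraries together. The fraction shared from the first pool into the second could not be measured, since no XX library of the second pool has an XY partner.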
